A study of Mus musculus with 4 samples.

Results

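Beta-catenin, the 4 Tcf/Lef transcription factors it works with and 4 of its feedback target genes were followed in mouse embryonic stem cells in 2 states. The members were Ctnnb1 (beta-catenin), Tcf7, Tcf7l1, Tcf7l2 and Lef1 (the factors), and Axin2, Nkd1, Notum and Sp5 (the targets). They were chosen by gene name. They took up 83 of the 160308 transcripts in the authors' deposited table and 9 of its 52327 gene names. RNA sequencing was done on the mouse embryonic stem cell line 46C, in which GFP reports on Sox1. The 2 libraries of the control group, ESCs, came from 46C grown in 2i, a medium with inhibitors of the kinases MEK and GSK3. The 2 libraries of the rfISCs group came from 46C cells in PIF medium, held at a stage between the rosette and the formative epiblast. All libraries came from this 1 cell line. No source used here gives the makeup of PIF medium or the passage of the cultures. Both groups carry the line's reporter, and no other allele was named.

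Beta-catenin is a protein of adherens junctions and the transcriptional partner of the Tcf/Lef factors. In the absence of a Wnt signal, a destruction complex built on Axin and Apc holds beta-catenin while CK1 and GSK3 phosphorylate it, and it is then degraded. Tcf/Lef factors without beta-catenin recruit Tle corepressors to their target genes. A Wnt signal or a GSK3 inhibitor lets beta-catenin accumulate, enter the nucleus and bind these factors. Axin2, Nkd1 and Notum are targets that feed back on the pathway and dampen it. In mouse embryonic stem cells Tcf7l1 is known mainly as a repressor of naive pluripotency genes, and beta-catenin relieves that repression.

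RNA of Ctnnb1, of 3 of the 4 factors and of the targets Nkd1 and Sp5 was higher in rfISCs, while that of Notum and Axin2 was lower. These are RNA levels, and the amount of beta-catenin or any other protein was not measured. The calls of Axin2 and Sp5 were borderline (adjusted p = 0.0467 and 0.0492, edgeR's quasi-likelihood test). They were lost in 6 and 5 of 12 other settings. Nkd1 rose 5.95-fold and Lef1 4.21-fold, and Notum fell 3.51-fold. Tcf7 did not pass the test. With edgeR's quasi-likelihood test and Benjamini-Hochberg adjustment over all genes, 8 of the 9 members had an adjusted p under 0.05, 6 of them higher and 2 lower. That test called 53.7% of all 16355 genes tested, 27.3% higher and 26.4% lower. The median log2 difference was 0.87 over the 9 members and 0 over all genes tested. The members were chosen with earlier results of these data known, so setting their count and median beside all genes is a description only. Sp5 passed the filter on low counts through the rfISCs libraries alone, so its place in the count and in the median is a description only. All changes given below are rfISCs against ESCs, with n = 2 libraries per group. In bulk samples, fewer cells of a type and less RNA per cell cannot be told apart.

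Library totals were 19243701 and 21517544 counts for ESCs and 21499590 and 23780989 counts for rfISCs. The cells were checked against marker genes by their summed TPM (a level per transcript length, scaled to the library). The 7 naive markers summed to 1801.09 to 1821.65 TPM in ESCs and 545.82 to 560.32 TPM in rfISCs, and all 7 were lower in both rfISCs libraries. The 3 markers shared by pluripotent states summed to 1439.14 to 1487.87 TPM in ESCs and 941.58 to 965.79 TPM in rfISCs, and 2 of the 3 were lower. The 5 formative markers summed to 103.59 to 134.77 TPM in ESCs and 429.98 to 444.9 TPM in rfISCs, and all 5 were higher. The 6 neural markers summed to 48.14 to 68.05 TPM in ESCs and 123.2 to 126.51 TPM in rfISCs. Most of that sum was Tubb3, at 66.2 and 47.11 TPM in ESCs and 92.76 and 93.66 TPM in rfISCs. Sox1 was at 0.5 and 0.35 TPM in ESCs and 12.18 and 11.15 TPM in rfISCs. Pax6 was at 1.35 and 0.65 TPM in ESCs and 20.71 and 17.44 TPM in rfISCs. All 6 neural markers were higher, while Neurog2 and Dcx stayed under 0.5 TPM in every library. The 7 markers of primitive streak and mesoderm summed to between 3.38 and 4.75 TPM in every library, with Mixl1, Mesp1 and Cdx2 under 0.5 TPM. Of the 7, 2 were higher and 2 lower in both rfISCs libraries. Eomes was at 1.63 and 2.31 TPM in ESCs and 1.28 and 1.04 TPM in rfISCs. Gsc was at 0.92 and 0.58 TPM in ESCs and 2.11 and 1.62 TPM in rfISCs. Markers of primitive endoderm, trophoblast and fibroblasts summed to 1.59 to 7.32 TPM in ESCs and 3.54 to 10.98 TPM in rfISCs. Among these, 3 of 6, 3 of 6 and 6 of 7 were higher in both rfISCs libraries, and Gata6, Sox17, Sox7, Tpbpa, Col3a1, Postn and Lum were under 0.5 TPM throughout. The part of these markers in the members' values was not tested.

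The sequences shown here are those that separate the measured transcripts of Tcf7l1 and Lef1, and the one promoter window with matches to more than 1 Tcf/Lef motif. Coding sequences are from the GENCODE M21 annotation of GRCm38, and promoter windows are from RefSeq on GRCm38.p6. Both are references and were not read from these libraries. Tcf7l1 lies at chr6:72626378-72789254 on the minus strand, and 1 of its 2 abundant coding transcripts holds 42 further coding bases. Lef1 lies at chr3:131110471-131224356 on the plus strand, and some of its coding transcripts hold an internal stretch of 84 bases. The Lef1 coding transcripts ENSMUST00000066849 and ENSMUST00000106341 share their first 1077 coding bases and end differently.
Tcf7l1 bases in ENSMUST00000114053 only: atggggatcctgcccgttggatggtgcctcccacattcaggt
Lef1 internal stretch: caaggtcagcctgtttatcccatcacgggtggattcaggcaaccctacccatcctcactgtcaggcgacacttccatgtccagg
Lef1 last coding bases of ENSMUST00000066849: acaggtcccagaatgacagctgcctacatc
Lef1 last coding bases of ENSMUST00000106341: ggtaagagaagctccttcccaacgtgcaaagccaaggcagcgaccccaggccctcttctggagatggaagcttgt

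Promoter windows of 250 bases before to 50 after a start site were at hand for 8 of the 9 members, 14 windows in all. They were searched on both strands for 3 forms of the Tcf/Lef motif, of which a site can match only 1. The form CTTTGAT was in 3.73% of the 32851 windows over all genes. The form CTTTGTT was in 5.85% of the same windows over all genes. The form CTTTGAA was in 5.14% of them, and 13.87% held any of the 3. Among the members, 2 windows held a match. One is an internal Tcf7l2 window at chr19:55895071-55895370, with the second form starting 14 bases before its start site. The other is the Sp5 window at chr2:70474673-70474972 on the plus strand. Its capitals mark the reverse complement of the second form and then the first form, which begin 222 and 104 bases before the start site. A match is a match of letters and does not show binding.
Sp5 promoter window: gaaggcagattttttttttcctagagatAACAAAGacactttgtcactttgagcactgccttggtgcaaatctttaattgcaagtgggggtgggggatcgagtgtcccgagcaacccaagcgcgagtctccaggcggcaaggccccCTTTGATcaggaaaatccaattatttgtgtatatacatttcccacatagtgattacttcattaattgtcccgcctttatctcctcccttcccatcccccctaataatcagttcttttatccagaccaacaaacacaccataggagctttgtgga

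**Figure D1:**
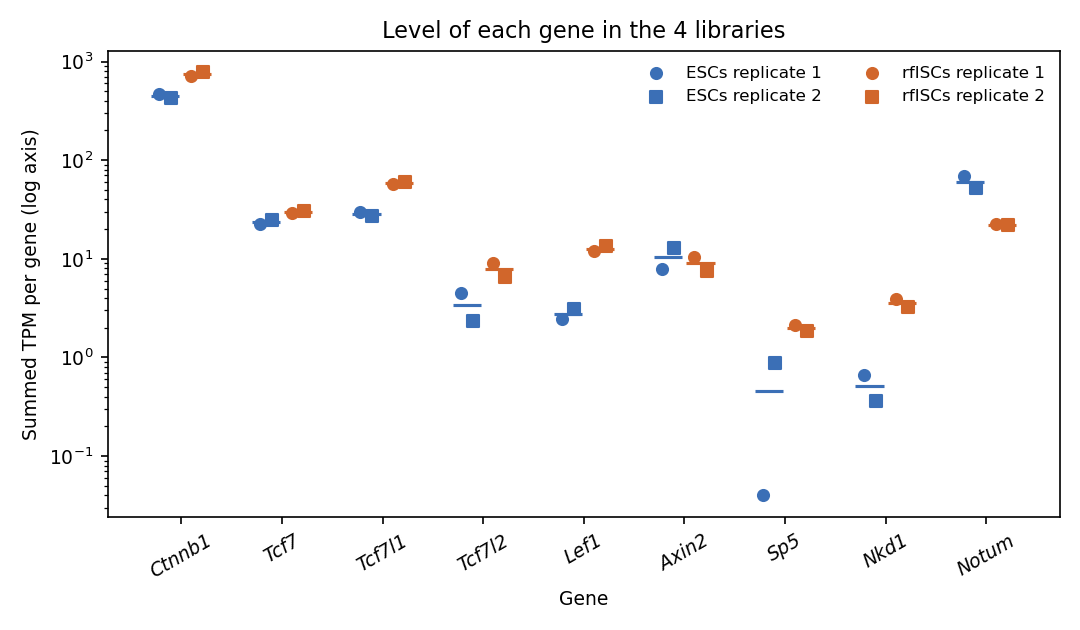
TPM of each of the 9 members in each of the 4 libraries, on a log axis, with 1 point per library and a short line at each group mean. Ctnnb1 is the most abundant member in both groups, at 424.17 to 469.16 TPM in ESCs and 708.23 to 784.86 TPM in rfISCs, and Sp5 the least, at 0.04 to 2.12 TPM.

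Ctnnb1, at chr9:120929216-120960507 on the plus strand, encodes beta-catenin itself. Its levels were 849 and 806 CPM in the 2 ESCs libraries and 1168 and 1124 CPM in the 2 rfISCs libraries, where CPM is the count scaled to the TMM-corrected library size. Both rfISCs libraries lay above both ESCs libraries. Ctnnb1 rose 1.38-fold, a log2 change of 0.47 (SE 0.0454, 95% interval 0.37 to 0.57), with an adjusted p of 2.68e-05 from edgeR's quasi-likelihood test. Per length, its level was 446.665 ± 31.8 TPM in ESCs and 746.545 ± 54.2 TPM in rfISCs (mean ± SD), a ratio of 1.67. The median log2 difference of all genes was 0 with TMM-scaled counts and 0.15 on log2(TPM + 1), so TPM ratios of the members lie on a raised scale.

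Ctnnb1 had 15 transcripts in the table, and few of them carried its reads. The coding transcripts ENSMUST00000007130 and ENSMUST00000178812 have an identical coding sequence of 2343 bases. Their estimated counts were divided unevenly in 1 library: ENSMUST00000178812 had 537.6, 398.7 and 91.76 counts in ESCs 1, ESCs 2 and rfISCs 1 but 8219.96 in rfISCs 2. ENSMUST00000007130 had 11907.83, 13152.99 and 20829.29 counts in the first 3 libraries and 12340.46 in rfISCs 2. Summed over both, the level was 250.5 and 240.4 TPM in ESCs and 393.4 and 399.0 TPM in rfISCs, so the replicates were close once the 2 forms were summed. A transcript of 1 exon annotated as a retained intron, ENSMUST00000215573, took 36.1% and 37.5% of the gene's TPM in ESCs and 33.3% and 40.2% in rfISCs. The annotation gives it no coding sequence. Coding transcripts together took 56.2% and 59.3% of the gene's TPM in ESCs and 58.5% and 53.9% in rfISCs.

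Of the factors, Lef1 rose most, followed by Tcf7l2 and Tcf7l1. Lef1, an activating partner of beta-catenin, was at 5.13 and 7 CPM in ESCs and 24.3 and 26.9 CPM in rfISCs. The groups were far apart beside the spread within each. Lef1 rose 4.21-fold, a log2 change of 2.07 (SE 0.162, 95% interval 1.71 to 2.44), with an adjusted p of 6.84e-06 from edgeR's quasi-likelihood test. Tcf7l2, at chr19:55741820-55933654 on the plus strand, is known for its role in the intestinal epithelium. It was at 7.53 and 5.34 CPM in ESCs and 17.3 and 14.1 CPM in rfISCs, with no overlap. Tcf7l2 rose 2.45-fold, a log2 change of 1.29 (SE 0.197, 95% interval 0.85 to 1.74, adjusted p = 0.000479, edgeR's quasi-likelihood test).

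Tcf7l1, the repressor of naive genes, was at 59.2 and 53.3 CPM in ESCs and 100.05 and 105 CPM in rfISCs. Both rfISCs libraries were nearly alike and above both ESCs libraries. Tcf7l1 rose 1.83-fold, a log2 change of 0.87 (SE 0.0765, 95% interval 0.7 to 1.04, adjusted p = 1.42e-05, edgeR's quasi-likelihood test). Tcf7, at chr11:52252371-52283014 on the minus strand, is best known from T cells, where it is also called Tcf1. It was at 46.4 and 50.7 CPM in ESCs and 51.9 and 55.6 CPM in rfISCs. The groups lay side by side without overlap, and the log2 difference of 0.15 (SE 0.0835, 95% interval -0.04 to 0.34) had an adjusted p of 0.169 in edgeR's quasi-likelihood test. On log2(TPM + 1) limma gave Tcf7 a log2 difference of 0.32 with an adjusted p of 0.0372.

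**Figure D2:**
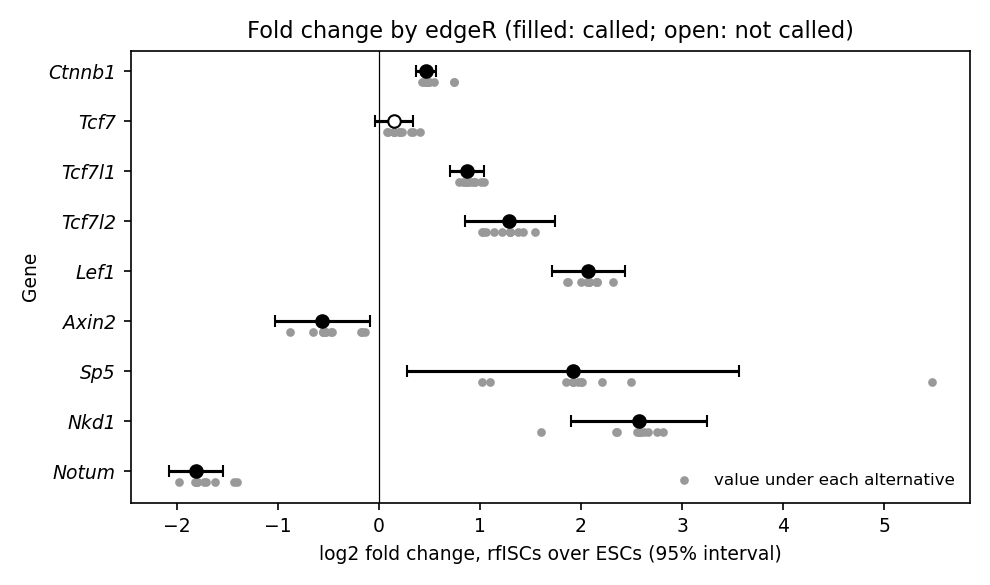
Log2 fold change of rfISCs over ESCs for each member, with its 95% interval from edgeR's quasi-likelihood fit. The intervals of 8 members leave out 0, 6 above it and 2 below, and that of Tcf7 (-0.04 to 0.34) includes it.

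Per length, Tcf7l1 was the most abundant of the 4 factors in every library and Tcf7 came second, and the share of Lef1 was higher in both rfISCs libraries. Tcf7l1 was at 29.81 and 27.22 TPM in ESCs and 57.37 and 59.75 TPM in rfISCs, and Tcf7 at 22.65 and 24.6 TPM in ESCs and 29.08 and 30.56 TPM in rfISCs. Lef1 was at 2.47 and 3.07 TPM in ESCs and 11.96 and 13.44 TPM in rfISCs. Tcf7l2 was at 4.49 and 2.36 TPM in ESCs and 9.12 and 6.53 TPM in rfISCs, so its libraries overlapped with those of Lef1 in ESCs and lay below them in rfISCs. The 4 factors together had 59.4 and 57.2 TPM in ESCs and 107.5 and 110.3 TPM in rfISCs, a ratio of 1.87.

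As a share of that sum, Lef1 went from 4.2% and 5.4% in ESCs to 11.1% and 12.2% in rfISCs, a difference of 6.9 percentage points. Tcf7 went from 38.1% and 43.0% to 27.0% and 27.7%, a difference of -13.17 points. The libraries of the 2 groups did not overlap for either factor. Tcf7l1 went from 50.2% and 47.5% to 53.4% and 54.2%, a difference of 4.91 points, and the share of Tcf7l2 (7.6% and 4.1% to 8.5% and 5.9%) overlapped between groups. An exact two-sided permutation test over 4 libraries cannot go below p = 0.33, and it gave that value for Lef1, Tcf7 and Tcf7l1 and 0.667 for Tcf7l2. The Tcf7 and Tcf7l1 shares rest on assembled transcripts that carry most of Tcf7. With Ensembl transcripts only, the difference was -3.01 points for Tcf7, -4.43 points for Tcf7l1, so that its direction turned, and 8.4 points for Lef1. The order turned too: Lef1 took 15.0% and 17.2% in rfISCs in that setting, above Tcf7 at 8.0% and 5.1%.

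**Figure D3:**
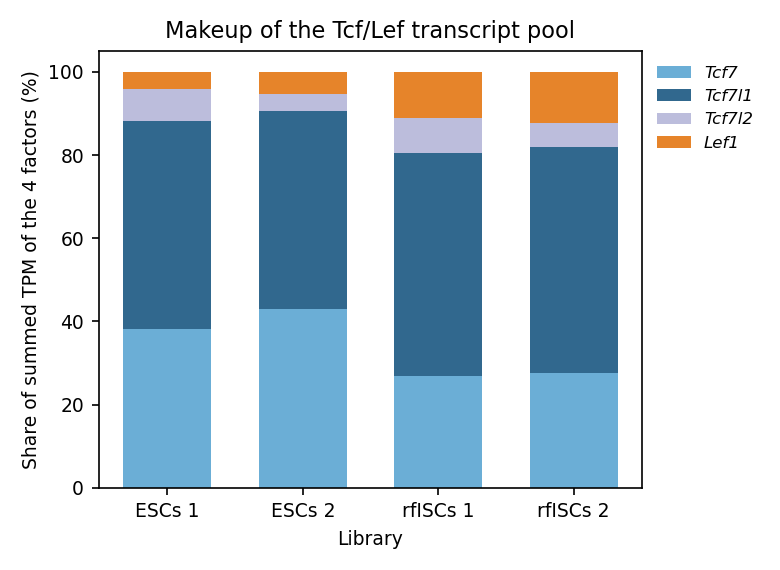
Share of Tcf7, Tcf7l1, Tcf7l2 and Lef1 in their summed TPM, in percent, with 1 stacked bar per library. Lef1 takes 4.2% and 5.4% in ESCs and 11.1% and 12.2% in rfISCs, and Tcf7 takes 38.1% and 43.0% in ESCs and 27.0% and 27.7% in rfISCs.

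The transcripts of the factors differed in how well they were resolved. For Tcf7l1, ENSMUST00000069536 (coding length 1755 bases) was at 19.61 and 17.16 TPM in ESCs and 39.97 and 38.24 TPM in rfISCs. It was 1 of the 2 member transcripts called at transcript level, with a log2 change of 0.95 (SE 0.0917, adjusted p = 0.0339, edgeR's quasi-likelihood test over 50163 transcripts, of which 3.68% were called). The call was lost with the replicate number as a block and without any 1 of the 4 libraries. No transcript of any gene was called in those fits, so the loss is not particular to this transcript. With the block, the smallest adjusted p of a member transcript was 0.163 in edgeR's quasi-likelihood test. In those fits 10 to 13 member transcripts had an unadjusted p under 0.05, beside 11 in the fit on all libraries. The form with the 42 further coding bases shown above, ENSMUST00000114053, was at 9.47 and 9.07 TPM in ESCs and 14.48 and 18.81 TPM in rfISCs. It took 31.8% and 33.3% of the gene's TPM in ESCs and 25.2% and 31.5% in rfISCs. The test of transcript usage did not call Tcf7l1.

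Lef1 reads came mainly from 3 coding transcripts. ENSMUST00000106341 was at 0.68 and 2.12 TPM in ESCs and 4.86 and 5.19 TPM in rfISCs. ENSMUST00000066849 was at 0.32 and 0 TPM in ESCs and 3.69 and 3.54 TPM in rfISCs, and the authors' deposited table marks it as significant, with a log2 fold of 4.41. ENSMUST00000098611 was at 1.37 and 0.95 TPM in ESCs and 3.34 and 4.46 TPM in rfISCs. All 3 were higher in both rfISCs libraries, though none passed the test at transcript level. The longest coding form, ENSMUST00000029611 (1191 bases), was listed at 0 in all 4 libraries.

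ENSMUST00000098611 starts inside the gene, at base 131112797 of chromosome 3 against 131110471 for the gene's start, and its coding length is 993 bases. It shares the last 985 coding bases of ENSMUST00000029611 and lacks a 203-base part of its beginning. The beta-catenin binding region of Lef1 lies at the N terminus of the protein. The coding transcripts with the 84-base stretch are ENSMUST00000098611 and ENSMUST00000029611. The latter was at 0 in every library, so their share is that of ENSMUST00000098611 alone. It took 57.8% and 30.9% of the TPM of the 4 coding Lef1 transcripts in ESCs and 28.1% and 33.8% in rfISCs. The groups overlapped, and the 2 ESCs libraries stood far apart.

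Tcf7 and Tcf7l2 were less well resolved. For Tcf7, assembled transcripts whose structure the table does not give took 86.5% and 84.3% of the TPM in ESCs and 77.9% and 86.9% in rfISCs. MSTRG.3437.2 and MSTRG.3437.4 took 35.7%, 51.2%, 29.4% and 36.2%, and 26.5%, 14.7%, 15.5% and 11.9%, in ESCs 1, ESCs 2, rfISCs 1 and rfISCs 2. MSTRG.3437.3 took 24.3%, 17.5%, 32.9% and 38.9%, higher in both rfISCs libraries. The annotated coding transcript ENSMUST00000086844 took 13.5% and 15.7% in ESCs and 22.1% and 13.1% in rfISCs. For Tcf7l2, the 27 transcripts in the table shared its few reads: 13 of them reached 10% of the gene's TPM in at least 1 library, and none went above 21%. The authors' deposited table marks 1 of these, MSTRG.12998.8, as significant, with a log2 fold of 3.703.

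**Figure D4:**
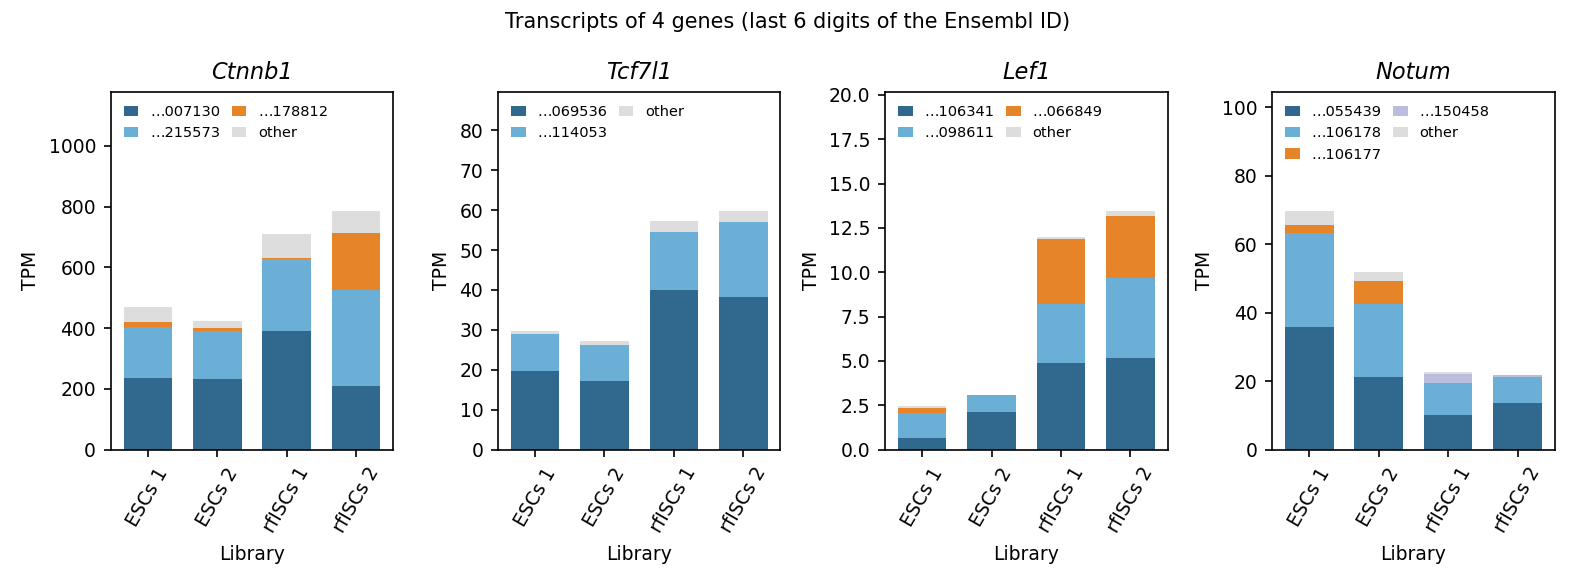
TPM of the transcripts that carry most of Ctnnb1, Tcf7l1, Lef1 and Notum, stacked in 1 bar per library with all further transcripts of the gene in grey. Tcf7l1 ENSMUST00000069536 lies at 17.16 and 19.61 TPM in ESCs and 38.24 and 39.97 TPM in rfISCs, while Notum ENSMUST00000106178 lies at 21.31 and 27.61 TPM in ESCs and 7.84 and 9.27 TPM in rfISCs.

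The feedback targets moved in both directions. Notum, at chr11:120653788-120661175 on the minus strand, encodes a secreted enzyme that removes the lipid from Wnt proteins and so inactivates them. It was at 88.5 and 69 CPM in ESCs and 22.6 and 22.3 CPM in rfISCs. The rfISCs libraries were nearly equal and both far below ESCs. Notum fell 3.51-fold, a log2 change of -1.81 (SE 0.12, 95% interval -2.08 to -1.54, adjusted p = 2.37e-06, edgeR's quasi-likelihood test). By TPM it was the second most abundant member in ESCs, at 69.68 and 51.88, and the fourth in rfISCs, at 22.6 and 21.86.

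Notum was the 1 member with a called shift in transcript usage (Simes test on edgeR's diffSpliceDGE, adjusted p = 0.0276, against 3.72% of the 10263 genes tested). Its coding transcripts ENSMUST00000106177 and ENSMUST00000106178 have the same coding sequence of 1509 bases. ENSMUST00000106177 had 71.5 and 222.6 counts in ESCs and 0 in both rfISCs libraries. By counting error alone it was at least 114-fold lower in rfISCs, with the group at 0 set to a floor of 3 counts. That bound leaves out error in dividing reads between forms. At transcript level ENSMUST00000106177 was not called (adjusted p = 0.0684, edgeR's quasi-likelihood test). ENSMUST00000106178 had 27.61 and 21.31 TPM in ESCs and 9.27 and 7.84 TPM in rfISCs, a log2 change of -1.65 (SE 0.193, adjusted p = 0.0428, edgeR's quasi-likelihood test). The transcript annotated as a retained intron, ENSMUST00000055439, was at 35.7 and 21.21 TPM in ESCs and 10.15 and 13.48 TPM in rfISCs. These 3 forms were lower in both rfISCs libraries, while a shorter coding form, ENSMUST00000150458, was at 0 and 0.12 TPM in ESCs and 2.71 and 0.38 TPM in rfISCs. The usage call was lost with the replicate number as a block (Simes test, adjusted p = 0.133) and without a filter (0.0549). It was also lost without any 1 of the 4 libraries. Usage calls over all genes fell too, from 3.72% to 0.672% with the block and 0.689% without a filter, and they also fell without any 1 library. The call of ENSMUST00000106178 was lost with the block and without any 1 library, fits in which no transcript of any gene was called.

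Axin2, at chr11:108920349-108950783 on the plus strand, encodes a scaffold of the destruction complex and is the target most often read as a gauge of the pathway. It was at 18.7 and 31.2 CPM in ESCs and 18.2 and 15.9 CPM in rfISCs. The 2 ESCs libraries were far apart, and the lower of them nearly met the higher rfISCs library. Axin2 fell 1.47-fold, a log2 change of -0.56 (SE 0.207, 95% interval -1.03 to -0.09), with an adjusted p of 0.0467 from edgeR's quasi-likelihood test. By TPM its groups overlapped, at 7.84 and 13.0 in ESCs and 10.47 and 7.58 in rfISCs. The call rests on ESCs 2, since without that library the log2 difference was -0.14 with an adjusted p of 0.484, and without ESCs 1 it was -0.88. It was also lost without rfISCs 2 (-0.46, adjusted p = 0.112).

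The main coding transcript of Axin2, ENSMUST00000052915, was at 4.73 and 7.11 TPM in ESCs and 4.11 and 4.06 TPM in rfISCs. This form was lower in both rfISCs libraries. The non-coding ENSMUST00000139682 was at 1.37 and 4.27 TPM in ESCs and 1.86 and 2.85 TPM in rfISCs, where the groups overlapped. ENSMUST00000106711 had 1.68 TPM in rfISCs 1 and 0 in the other libraries, and it is counted in the gene's TPM of that library. The short coding forms ENSMUST00000140821 and ENSMUST00000144511 were at 0.2 to 1.59 TPM in the 4 libraries.

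Nkd1, at chr8:88521354-88594884 on the plus strand, encodes an inhibitor that binds Dishevelled. It was at 1.2 and 0.875 CPM in ESCs and 5.35 and 6.96 CPM in rfISCs. Its counts were low in ESCs, at 22 and 18, and 117 and 168 in rfISCs. Nkd1 rose 5.95-fold, a log2 change of 2.57 (SE 0.3, 95% interval 1.9 to 3.25, adjusted p = 8.99e-05, edgeR's quasi-likelihood test). The division between its 3 coding transcripts differed between replicates: ENSMUST00000211113 had 46.33 counts in rfISCs 1 and 0 in rfISCs 2, and ENSMUST00000034086 had 53.04 and 132.62. The third, ENSMUST00000169179, took at most 16.4% of the gene's TPM.

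Sp5, at chr2:70474923-70477729 on the plus strand, encodes a zinc finger protein that binds and represses target genes of the pathway. Its 1 transcript had 1 and 27 counts in ESCs and 62 and 61 in rfISCs, or 0.0545 and 1.31 CPM against 2.84 and 2.53 CPM. The rfISCs libraries were close to each other and the ESCs libraries were not. Sp5 rose 3.79-fold, a log2 change of 1.92 (SE 0.726, 95% interval 0.28 to 3.56), with an adjusted p of 0.0492 from edgeR's quasi-likelihood test. The size of this change rests on ESCs 1, since the log2 difference was 1.02 without that library and 5.47 without ESCs 2. The call was lost without rfISCs 1 (adjusted p = 0.0769), without rfISCs 2 (0.0573) and with DESeq2 (0.34).

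The authors' deposited table marks 6 of the 83 member transcripts as significant, 3 up and 3 down, against 2.33% of all transcripts. The 3 up are ENSMUST00000066849 of Lef1, ENSMUST00000034086 of Nkd1 and MSTRG.12998.8 of Tcf7l2. The 3 down are MSTRG.4551.2 of Axin2 and ENSMUST00000106177 and MSTRG.4760.3 of Notum. The 2.33% is over all 160308 transcripts, of which 50163 passed the count filter used here, beside 41 of the 83 member transcripts. These bases are unlike, so the 2 shares cannot be compared directly. The smallest log2 fold among all transcripts so marked was 2.32 in size. In the same source 14 member transcripts have an adjusted p under 0.05, a count for which the share over all transcripts was not taken. ENSMUST00000069536 of Tcf7l1, with an adjusted p of 8.06e-18 and a log2 fold of 0.962 in the authors' deposited table, is not marked.

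The other genes of the pathway were read from 6 lists by role, and each change named below passed edgeR's quasi-likelihood test at an adjusted p under 0.05. Of 21 genes for the destruction complex and degradation, 8 were higher, 3 lower and 10 not called, with a median log2 difference of 0.11. That is 52.4% called, beside 53.7% of all genes. The largest rises were those of Apc2, a relative of Apc (8.83-fold, from 0.482 to 4.17 CPM, a gene that passed the count filter through rfISCs alone), Dvl3, which carries the Wnt signal from the receptor (1.76-fold, not called without assembled transcripts, adjusted p = 0.479), and Csnk1d, a CK1 kinase (1.64-fold). The rise of Apc2 moved with single ESCs libraries, with a log2 change of 4.79 without ESCs 1 and 2.35 without ESCs 2. Apc, the scaffold itself, fell 1.38-fold, from 219 to 158 CPM, but its log2 difference was 0.54 with an adjusted p of 0.33 when assembled transcripts were left out. Csnk1a1, the CK1 kinase that primes beta-catenin, fell 1.18-fold (0.02 on log2(TPM + 1), adjusted p = 0.772), and Usp7, a deubiquitinase, fell 1.11-fold, a call lost in 8 of 12 other settings. Axin1, Gsk3a and Gsk3b were among the 8 that rose, but with Ensembl transcripts only their log2 differences were 0.82, -0.05 and 0.48, with adjusted p of 0.323, 0.888 and 0.503. In that setting 2 genes of the list, Apc2 and Csnk1d, were called higher. The count of higher genes was 5 without rfISCs 1, and that of lower genes was 1 without rfISCs 2 and 0 in both limma fits on TPM.

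Of 13 nuclear coactivators, 8 were higher and 2 lower (76.9% called, beside 53.7% of all genes, median log2 difference 0.27). The number higher was 4 with Ensembl transcripts only. Bcl9 and Bcl9l, which link beta-catenin to Pygo proteins, rose 2.14-fold (from 31.7 to 67.7 CPM) and 2-fold (from 17.4 to 34.9 CPM). With Ensembl transcripts only the log2 difference of Bcl9 was 0.57, against 1.1 with all, and it was not called (adjusted p = 0.0522). Pygo1 rose 2.42-fold from a low level, 2.17 to 5.28 CPM. Tbl1xr1, part of a corepressor exchange complex, fell 1.36-fold, a call lost in 3 of 12 other settings, and Parp1 1.3-fold.

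Of 17 corepressors and inhibitors in the table, 15 could be tested, and 5 were higher and 4 lower (60% called, median 0.08). Over all genes 53.7% were called, 27.3% higher and 26.4% lower, so this count lies near that share. The count of lower genes was 2 without rfISCs 1 or rfISCs 2, with library totals and in both limma fits. Tle3, a corepressor that Tcf/Lef factors recruit, rose 1.8-fold, from 99.8 to 179.9 CPM, and Ctnnbip1, which competes with Tcf for beta-catenin, rose 1.98-fold. The kinase Hipk2 rose 2.39-fold, although its log2 difference was -0.24 with an adjusted p of 0.475 when assembled transcripts were left out. Tle5, a short form of the family that lacks its C-terminal repeats, fell 2.55-fold, from 111 to 43.7 CPM. Tle6 fell 3.57-fold and Tle2 1.98-fold, from 12 and 2.75 CPM, and the call of Tle2 was lost in 8 of 12 other settings. The log2 change of Tle6, -1.84 as tested, was -1.18 with Ensembl transcripts only and -1.05 on log2(TPM + 1), and it was called in both.

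Among 8 junction partners of beta-catenin, 3 were higher and 3 lower (75% called, beside 53.7% of all genes, median 0.08). The count of lower genes was 1 without rfISCs 1 and 0 in both limma fits. N-cadherin, Cdh2, rose 19.9-fold, from 4.2 to 83.4 CPM, and P-cadherin, Cdh3, 2.65-fold, from 12.5 to 33.1 CPM. Ctnna2, the neural alpha-catenin, rose 14.1-fold from 0.152 to 2.25 CPM and passed the count filter through rfISCs alone. E-cadherin, Cdh1, fell 1.17-fold, from 438 to 373 CPM, a call lost in 3 of 12 other settings. Ctnna1 fell 1.21-fold and Jup 1.18-fold, calls lost in 2 and 5 of 12 other settings.

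Among 15 other beta-catenin target genes tested, out of 20 listed, 10 were higher and 1 lower (73.3% called, beside 53.7% of all genes). Their median log2 difference was 1.87, the same with Dkk1 at its bound. Of the 10, 6 (Lgr5, Nkd2, Dkk1, Myc, Wnt8a and Prox1) passed the count filter through rfISCs alone, and Cdx1 passed through ESCs alone. These genes had to differ to be tested, so the count and the median are a description and support no direction for the list. Wnt8a rose 22.9-fold, from 0.312 to 7.22 CPM, a log2 change of 4.52 that was 6.97 with Ensembl transcripts only and 2.41 on log2(TPM + 1). Dkk1, a secreted inhibitor of the Wnt coreceptor, was listed at 0 in both ESCs libraries and had 29 counts over the rfISCs libraries, at least 8.18-fold higher by the same floor. Lgr5, an R-spondin receptor, had 1 count over the ESCs libraries against 33 over the rfISCs libraries. Their ratio was 27.9, with an exact 95% interval of 4.67 to 1136 for counting error. Dkk1 and Lgr5 fell under the count filter without rfISCs 2. The homeobox gene Cdx1 fell 15.8-fold, from 2.5 ± 2.38 CPM to 0.16 ± 0.226 CPM. Its call was lost without ESCs 2 (log2 difference -2.36, adjusted p = 0.0571), with Ensembl transcripts only (0.0516) and with DESeq2 (0.147), and its log2 change was -8.73 without rfISCs 1. T, Cdx2, Cdx4, Dkk4 and Wif1 had too few counts to be tested.

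All 7 genes known to be repressed by Tcf7l1 in embryonic stem cells were lower, with a median log2 difference of -2.26. Of all genes tested, 26.4% were called lower. This list, like the others, was chosen with earlier results of these data known. The largest falls were those of Tbx3 (6.75-fold), Tfcp2l1 (5.88-fold) and Nr5a2 (5.13-fold), all factors of the naive state. Of these 7 genes, 5 are also on the list of naive markers above, so the count is not separate from the difference in state.

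**Figure D5:**
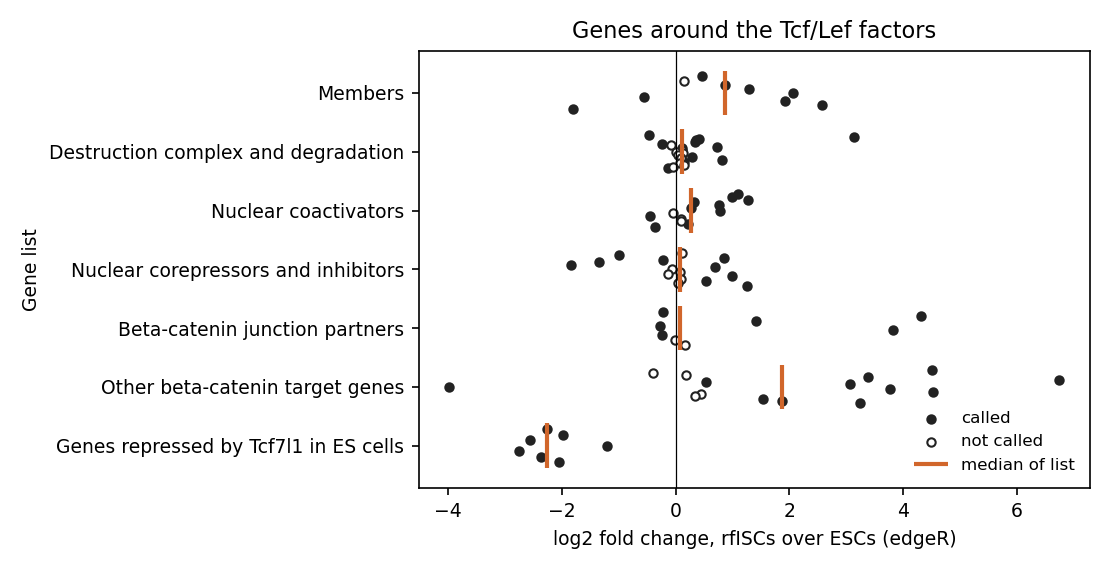
Log2 fold change of rfISCs over ESCs for the members and the tested genes of each pathway list, with 1 point per gene (filled where called) and a line at the list's median. The point at the far right is Dkk1, listed at 0 in ESCs, whose fitted value is no bound. Genes repressed by Tcf7l1 lie below 0 (7 of 7 lower), other beta-catenin target genes lie mostly above it (10 higher, 1 lower), and the remaining lists lie on both sides. Of the 10 higher target genes, 6 passed the count filter through rfISCs alone, and the 1 lower gene passed through ESCs alone. Their count therefore supports no direction for that list.

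The genes whose CPM over the 4 libraries lay nearest to a member's, by Euclidean distance of log2 CPM, were found for Tcf7l1, Lef1 and Axin2. For Tcf7l1 they were Tfe3 (distance 0.0615), Sec24b (0.0651) and Notch2 (0.106). Nearest to Lef1 were Igsf9 (0.137), Zfp365 (0.192) and Lpar6 (0.335). Nearest to Axin2 were Pdcd2 (0.288), Fam107b (0.289) and Mcc (0.325). Distances were larger for Axin2 than for Tcf7l1, and Lpar6 lay farther from Lef1 than any of the named genes from Axin2.

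By TPM the order in ESCs was Ctnnb1, Notum, Tcf7l1, Tcf7, Axin2, Tcf7l2, Lef1, Nkd1 and Sp5. In rfISCs it was Ctnnb1, Tcf7l1, Tcf7, Notum, Lef1, Axin2, Tcf7l2, Nkd1 and Sp5. Neighbours whose libraries overlapped were Tcf7l2 with Lef1 and Nkd1 with Sp5 in ESCs, and Axin2 with Tcf7l2 in rfISCs.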

How the data were processed

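RNA sequencing of total RNA from 2 ESCs and 2 rfISCs libraries was used. The table that the authors deposited lists transcripts. It gives estimated counts, which hold decimals, TPM per library and as a group mean, transcript length, a fold change with its log2, and p-values with adjusted p-values, per the file headers. Bowtie 0.12.2 and the build mm9 stand in the submitters' processing notes without their roles. No source used here gives the quantifier, the assembler or the authors' test. Coordinates were taken from GENCODE M21 (GRCm38) by transcript ID: 67 of the 68 Ensembl transcripts of the members matched, and 65 had the same length.

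Estimated counts were summed per gene name and rounded. The 3382 transcripts with a blank name, 1.22% to 1.62% of counts, were left out. Genes were kept by filterByExpr (minimum count 10), leaving 16355, and tested with edgeR 4.0.16 (R 4.3.3), TMM scaling and the group as the 1 term, with Benjamini-Hochberg adjustment over all genes and a threshold of 0.05. Transcripts were tested the same way, and their usage with diffSpliceDGE. SE is the log2 change divided by the square root of F. The labels do not say whether the libraries came from separate cultures, and p-values then measure only how far these libraries differ, which may be technical. The chi-square per degree of freedom between replicates was 6.71 in ESCs and 4.55 in rfISCs, above sampling noise. The scripts were tested on simulated data without error in dividing reads between transcripts, so that check does not cover such error in the transcript and usage tests. Intervals and floors for low counts cover counting error only.

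The members and the pathway and marker lists were chosen with earlier results of these data known. Named genes were all 9 members, up to 3 called rises and 3 called falls with the largest change in each list, transcripts with at least 10% of their gene's TPM in any library (summarised for Tcf7l2), and the 3 nearest genes to Tcf7l1, Lef1 and Axin2. The use of strand in counting is not stated. Alternatives were DESeq2 1.42.0, DESeq2's size factors in the edgeR fit, library totals, no filter, a replicate block, Ensembl transcripts only, limma 3.58.1 on log2(TPM + 1) and log2(TPM + 0.1) for genes with at least 1 TPM in 2 libraries, and leaving out each library.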

Additional observations from a re-analysis of the deposited data

How the results depend on the processing

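Ctnnb1, Tcf7l1, Lef1, Nkd1 and Notum kept their direction and call in all 12 other settings, with log2 changes of 0.43 to 0.74, 0.79 to 1.04, 1.86 to 2.32, 1.60 to 2.81 and -1.98 to -1.40. The number of members called lower, 2 as reported, was 1 with library totals, Ensembl transcripts only and both limma fits on TPM, and 1 to 2 when 1 library was left out. The member lost was Axin2, with adjusted p of 0.0844, 0.15, 0.659 and 0.663 in the first 4. Tcf7 was called with library totals (0.23, adjusted p = 0.0421) and without ESCs replicate 2 (0.21, adjusted p = 0.0463). Sp5 was not called with Ensembl transcripts only (adjusted p = 0.159) and on log2(TPM + 0.1) (0.101), nor was Tcf7l2 on the latter (0.0517). Genes of the pathway lists called lower, 20 as reported, were 10 in both limma fits. Leaving out each library gave 0 called member transcripts throughout (2 as reported, edgeR), and 0 to 1 genes with a usage call (1 as reported); without rfISCs replicate 1 the gene called was Ctnnb1, not Notum. No transcript of any gene was called when 1 library was left out. With no filter the usage count was 0. At an unadjusted p under 0.05, 10 to 13 member transcripts and 1 to 3 genes with a usage shift were counted in these settings and the block, and 15 and 2 with no filter. The difference in the share of Tcf7l2 was 1.36 points as reported, -0.36 to 3.08 when 1 library was left out (-0.36 without ESCs replicate 2) and -0.95 with Ensembl transcripts only, where the shares of Tcf7, Tcf7l1 and Lef1 differed by -3.01, -4.43 and 8.4 points. Single genes that turned were Apc (0.54) and Hipk2 (-0.24) with Ensembl transcripts only and Csnk1a1 (0.02) in both limma fits. The cause of these changes was not tested.

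Of all genes called, 50.9% were higher with TMM, 59.2% with library totals and 66.4% and 66.5% in the limma fits. Replicate numbers in the labels showed no pairing: deviations of same-numbered libraries correlated at r = 0.0209 over 9790 genes. With the replicate number as a block, 8 members were called as before, and the counts of called member transcripts and usage calls were both 0. That fit called 0 of all 50163 transcripts, and a usage shift in 0.672% of genes beside 3.72% without the block. Low counts limit Sp5, Nkd1 and Tcf7l2, and reads divided among near-identical transcripts limit all transcript values.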
